A study of Homo sapiens with 30 samples.

Results

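ZR-75-30 is a human breast cancer cell line of luminal type, positive for the estrogen receptor and carrying extra copies of the ERBB2 gene. The data described here are its time course of BMP7 treatment without the 6 h point, which is 5 of the 30 arrays of the series. The 5 arrays were chosen by cell line and time alone. Each array compared cells given recombinant human BMP7 at 50 ng/ml (labelled with Cy5) with cells given vehicle for the same time (labelled with Cy3). The first hour was covered by 2 arrays (30 min and 1 h), and the later times by 3 arrays (3 h, 12 h and 24 h). Cells from 3 parallel cultures were pooled for each sample, and a single array was made per time, with no dye swap. The arrays of a group are therefore different times of treatment rather than repeats of one, and all p-values measure the spread between times within a group. Their small number limits the precision of every value. The other cell lines of the series, HCC1954, MDA-MB-231, MDA-MB-361 and T-47D, contributed 20 arrays at the same 5 times and serve as a comparison.

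A level is given throughout as the log2 ratio of BMP7 to vehicle on 1 array, where 0 is no difference between the treatments and 1 is a 2-fold higher level with BMP7. A difference is the mean log2 ratio at 3, 12 and 24 h minus the mean at 30 min and 1 h, so any dye bias that was constant over the arrays cancels in it. The array carries 41000 probes. A probe was tested where both its channels stood well above background on 4 or more of the 5 arrays, which held for 23623. The labelled cell type was checked in the vehicle channel. All 11 luminal markers were well above background on all 5 arrays, among them KRT8, KRT18, GATA3, ESR1 and ERBB2. Of 9 basal and mesenchymal markers, 4 were above background on all 5 arrays (FN1, KRT14, VIM and TP63) and 2 (CDH2 and SPARC) on none. The vehicle signal was 469 to 933 for FN1 and at most 257 for the other 3. Of 10 markers of other cell types, 3 were above background on all 5 arrays (CD3E, CD68 and VWF, with vehicle signals of at most 119), and 3 on none, namely the defining markers PTPRC of leukocytes, PECAM1 of endothelium and DCN of fibroblasts.

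The 5 arrays did not stand equally close to each other. Over the probes tested, the log2 ratios at 3 h and 12 h correlated at 0.849, those at 12 h and 24 h at 0.69 and those at 30 min and 1 h at 0.45. The 30 min array correlated negatively with the 3 h array (-0.405, and -0.232 over all probes) and with the 12 h array (-0.323). The first principal component took up 74.3% of the variance, and its weights were -0.694 and -0.323 for the 30 min and 1 h arrays and 0.43, 0.462 and 0.126 for the later arrays in order of time. The 30 min array was also the only one of the 5 from the second scan batch, and lay on a slide with the 6 h array and arrays of MDA-MB-231. The 1 h and 3 h arrays shared a slide, so that their difference is a value within 1 slide and scan batch. Values without the 30 min array are values within the first scan batch. Of the 90 named genes past the threshold, 0 turned direction without that array. This outcome was fixed in advance, because the 2 groups of arrays did not overlap for any called probe. The dye assigned to each treatment is stated for every array, so the sign of each ratio is settled by the labels.

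BMP7 is a secreted ligand of the TGF-β superfamily. It binds type I and type II serine-threonine kinase receptors, which phosphorylate SMAD1, SMAD5 and SMAD9, and these enter the nucleus with SMAD4 and switch on target genes. The best known direct targets are the inhibitor of DNA binding (ID) genes, whose products block basic helix-loop-helix factors, and the inhibitory SMADs, SMAD6 and SMAD7, which feed back on the receptors. The study chose ZR-75-30 as a line with low expression of its own BMP4 and BMP7. Probes for BMP7 were still bright enough to be tested here. The BMP7 probe with the brightest vehicle signal had log2 ratios between -0.13 and 0.14 on the 5 arrays (difference -0.14 ± 0.11 SE, adjusted p = 0.379), whereas another of its 3 probes rose by 1.08 (adjusted p = 0.023) and the third had a difference of 0.40 (adjusted p = 0.0808).

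Regulatory sequence of BMP targets is shown for 4 genes that rose in ZR-75-30 cells, from 250 bases before to 50 bases after the start of the gene (RefSeq, GRCh38.p14). Capitals mark the letters GGCGCC, a GC-rich motif bound by SMAD1 and SMAD5, and GTCTAGAC, a palindrome made of the SMAD-binding letters GTCT and their reverse complement. Both motifs read the same on either strand, and they do not overlap each other. The windows are ID2 at chr2:8681806-8682105 (plus strand), ATOH8 at chr2:85753741-85754040 (plus strand), SMAD6 at chr15:66701986-66702285 (plus strand) and DUSP2 at chr2:96145391-96145690 (minus strand).
ID2: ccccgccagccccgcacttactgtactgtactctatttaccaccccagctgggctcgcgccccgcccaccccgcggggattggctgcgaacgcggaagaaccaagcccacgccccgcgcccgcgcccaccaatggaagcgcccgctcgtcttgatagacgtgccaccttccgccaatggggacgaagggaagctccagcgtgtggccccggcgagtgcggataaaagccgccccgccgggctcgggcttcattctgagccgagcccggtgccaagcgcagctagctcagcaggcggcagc
ATOH8: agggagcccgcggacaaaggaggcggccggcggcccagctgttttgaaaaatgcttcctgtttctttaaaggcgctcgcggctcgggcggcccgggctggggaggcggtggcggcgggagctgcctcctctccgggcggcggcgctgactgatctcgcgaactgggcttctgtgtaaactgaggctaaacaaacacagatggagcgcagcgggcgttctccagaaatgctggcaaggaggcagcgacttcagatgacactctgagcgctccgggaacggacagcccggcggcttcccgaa
SMAD6: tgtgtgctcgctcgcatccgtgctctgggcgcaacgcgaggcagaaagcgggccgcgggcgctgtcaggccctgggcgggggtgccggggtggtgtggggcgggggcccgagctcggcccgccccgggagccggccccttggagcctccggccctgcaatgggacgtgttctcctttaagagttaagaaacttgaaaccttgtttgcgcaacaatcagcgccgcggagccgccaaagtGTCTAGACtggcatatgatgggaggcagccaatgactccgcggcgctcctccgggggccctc
DUSP2: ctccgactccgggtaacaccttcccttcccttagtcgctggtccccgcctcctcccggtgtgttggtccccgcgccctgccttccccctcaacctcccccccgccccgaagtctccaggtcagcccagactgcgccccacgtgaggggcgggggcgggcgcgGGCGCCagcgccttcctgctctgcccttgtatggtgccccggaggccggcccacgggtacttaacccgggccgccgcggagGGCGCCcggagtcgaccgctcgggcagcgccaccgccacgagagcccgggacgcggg
GTCTAGAC started at base 239 of the SMAD6 window, and GGCGCC at bases 163 and 244 of the DUSP2 window. The ID2 and ATOH8 windows held neither run of letters. GGCGCC occurred in 1 of the 7 ID and BMP target genes that rose and had a window, and in 3 of the 15 with no call. Over all 27305 promoter windows 19.0% held GGCGCC and 0.201% held GTCTAGAC. Among the genes tested the share with GGCGCC was 30.6%, against 34.4% of those with a probe that rose and 30.3% of those with a probe that fell. A match of letters is a description of the window and does not show binding.

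Between the first hour and the later times, 2654 probes rose and 2313 fell in ZR-75-30 cells (limma, adjusted p under 0.05), which is 11.2% and 9.79% of the probes tested and 21.0% together. They belonged to 1849 and 1547 named genes. At an unadjusted p under 0.05 there were 9473 probes. The median difference was 0.61 among probes that rose and -0.52 among those that fell, against -0.04 over all probes tested, and 346 of the first and 82 of the second changed by at least 2-fold. Called or not, 1.49% of all probes tested were at least 2-fold higher and 0.351% at least 2-fold lower with no overlap between the groups of arrays. For the probes that rose, the median log2 ratio was -0.46 and -0.23 on the arrays of the first hour, 30 min and then 1 h, and 0.34, 0.36 and 0.16 on those of 3, 12 and 24 h. For those that fell it was 0.31, 0.23, -0.30, -0.32 and -0.18 at the same times. The typical called probe thus lay on opposite sides of 0 in the first hour and later, and lay nearer to 0 at 24 h than at 3 or 12 h. The number of calls rested on single arrays. It was 58 without the 30 min array, 0 without the 3 h array (6453 at an unadjusted p under 0.05) and 7 without the 12 h array, and 7297 without the 1 h array. It was also 0 with normexp background correction and median scaling (2919 at an unadjusted p under 0.05) and 2 with no filter on dim probes. With the authors' table of normalized values, 3024 probes rose and 1307 fell.

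Among the ID genes, ID2 and ID3 rose. ID2, measured by 2 probes, had log2 ratios of 0.13 and 0.41 in the first hour and of 1.24, 0.99 and 1.24 later (times in order throughout) on the brighter probe (hg18 chr2:8741733-8741792). All 3 later arrays lay above both arrays of the first hour, as they did for 26.3% of all probes tested. The difference was 0.89 ± 0.13 (SE), a 1.85-fold increase (adjusted p = 0.0148), and the second ID2 probe gave 0.78 (adjusted p = 0.0176). ID3 went from -0.06 and 0.32 in the first hour to 0.63, 0.63 and 0.64 at 3, 12 and 24 h. Its later values were almost identical, and the difference was 0.50 ± 0.13 (adjusted p = 0.0364). Within the first scan batch the differences were 0.75 for ID2 and 0.31 for ID3, with adjusted p-values up to 0.0747 and 0.127 over the fits that left out 1 array.

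The probe that the array names ID1 did not pass the test. Its log2 ratios were 0.29, 0.31, 0.41, 0.55 and 0.74 from 30 min to 24 h, all above 0, with a difference of 0.27 ± 0.12 (adjusted p = 0.144). Its vehicle signal was 43700, and the spot was saturated on 0 of the 5 arrays. A probe listed under the transcript CN479126 was named after its values were seen, because it lies 788 bases upstream of the ID1 probe on chromosome 20 (hg18 chr20:29657031-29657090). On it the log2 ratios were -0.38 and -0.52 in the first hour and 1.13, 0.74 and 1.04 later, a rise of 1.42 ± 0.14 (adjusted p = 0.0123). The signal of this probe changed by 0.38 with BMP7 and by -1.04 with vehicle. ID4 went from 0.36 and 0.48 to 0.06, -0.01 and 0.31, with a difference of -0.30 ± 0.13 (adjusted p = 0.119).

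**Figure D1:**
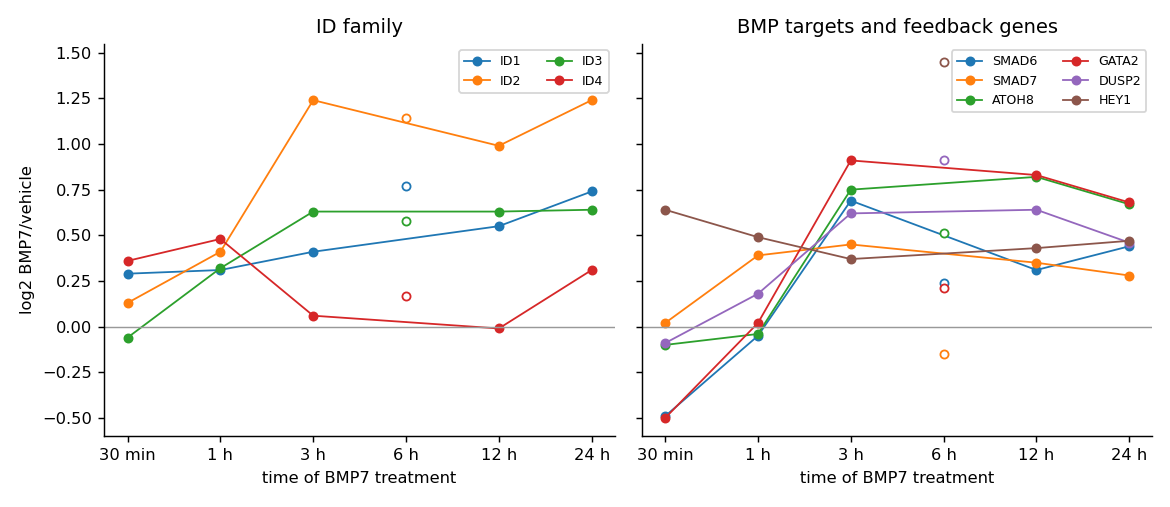
Log2 BMP7/vehicle ratio (vertical axis) in ZR-75-30 cells by time of treatment (horizontal axis, evenly spaced) for the ID family (left) and 6 BMP target and feedback genes (right), 1 array per time. Filled points are the 5 arrays compared and open points the 6 h array, which was left out. ID2 stands at 0.13 and 0.41 in the first hour and between 0.99 and 1.24 on the later 3 arrays.

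Of 23 BMP target and feedback genes tested, 6 rose (SMAD6, ATOH8, GATA2, DLX3, MSX1 and DUSP2), 1 fell (RUNX2) and 16 did not pass the test. Of all probes tested 11.2% rose and 9.79% fell. The median difference over the list was 0.13, against -0.04 over all probes tested. SMAD6, the inhibitory SMAD that competes for BMP receptors and SMAD1, had log2 ratios of -0.49 and -0.05 in the first hour and of 0.69, 0.31 and 0.44 later. It rose by 0.75 ± 0.17, or 1.68-fold (adjusted p = 0.0258), and by 0.53 within the first scan batch. SMAD7, the other inhibitory SMAD tested, stood at 0.02 at 30 min, 0.39 at 1 h and 0.45, 0.35 and 0.28 later. Its 1 h value lay among the later ones, and the difference was 0.15 ± 0.13 (adjusted p = 0.416), or -0.03 without the 30 min array.

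ATOH8, a basic helix-loop-helix transcription factor, was near 0 in the first hour (-0.10 and -0.04) and at 0.75, 0.82 and 0.67 later. The rise of 0.81 ± 0.10 (1.76-fold, adjusted p = 0.0148) varied little, from 0.78 to 0.85, when single arrays were left out. GATA2, a zinc finger transcription factor, had log2 ratios of -0.50 and 0.02 in the first hour and 0.91, 0.83 and 0.68 later. It rose by 1.05 ± 0.16 (adjusted p = 0.0157), its second probe by 1.61 (adjusted p = 0.0169), and the first by 0.79 within the first scan batch. DUSP2, a phosphatase that acts on MAP kinases in the nucleus, went from -0.09 and 0.18 to 0.62, 0.64 and 0.46, a rise of 0.53 ± 0.12 (adjusted p = 0.0275), or 0.40 within the first scan batch.

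The homeobox genes among the targets differed from probe to probe. DLX3 went from -0.65 and 0.01 to 1.12, 1.11 and 0.66, and rose by 1.29 ± 0.22 (adjusted p = 0.0171), or by 0.96 within the first scan batch, where MSX1 gave 0.72 and RUNX2 -0.46. MSX1 rose by 1.03 ± 0.20 on its brighter probe (adjusted p = 0.021), while the other probe gave 0.08 (adjusted p = 0.718). On that brighter probe the levels in both channels were lower at the later times, by 0.43 with BMP7 and by 1.47 with vehicle on the log2 scale. MSX2 had a difference of 0.24 ± 0.09 on the brighter probe (adjusted p = 0.0989), and the second probe rose by 0.43 (adjusted p = 0.0377). DLX1 gave 0.02 on its brighter probe, and its second probe rose by 0.68 (adjusted p = 0.0383). DLX2 gave 0.00, 0.22 and 0.37 on 3 probes, none past the threshold. RUNX2, a regulator of bone formation, went from 0.47 and 0.29 to -0.36, -0.09 and -0.08 and fell by 0.55 ± 0.13 (adjusted p = 0.0285).

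HEY1, a Notch and BMP responsive repressor, was above 0 on all 5 arrays, at 0.64, 0.49, 0.37, 0.43 and 0.47. There was no increase at 3, 12 or 24 h (limma, difference -0.14 ± 0.10, adjusted p = 0.335). On the 6 h array, which was left out, HEY1 stood at 1.45. BAMBI, a pseudoreceptor that dampens BMP signaling, had a difference of 0.15 ± 0.14 (adjusted p = 0.461). SKIL, SMURF1, SMURF2, HES1, KLF10 and PMEPA1 had differences between -0.21 and 0.15, none past the threshold. SMAD9 and ZNF423 were too dim to be tested.

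Among 12 BMP receptors and SMADs tested, 0 rose and 3 fell, namely SMAD4, SMAD2 and ACVR2A, against 11.2% and 9.79% of all probes. The median difference was -0.23, against -0.04 over all probes tested. Only 1 of the 12 fell with array weights, with the authors' table of values or in a fit of 25 arrays, and 0 without the 30 min, 3 h or 12 h array. SMAD4, the common partner of all receptor-activated SMADs, had log2 ratios of 0.33 and 0.18 in the first hour and of -0.47, -0.71 and -0.41 later. It fell by 0.78 ± 0.12 (adjusted p = 0.0157), with a value of -0.65 for 3 h against 1 h on the shared slide. SMAD2, which transmits TGF-β and activin signals, fell by 0.40 ± 0.12 on its brightest probe (adjusted p = 0.0476), and its other 3 probes gave -0.34 to -0.37 without passing the threshold. ACVR2A, a type II receptor, went from 0.34 and 0.07 to -0.15, -0.27 and -0.31 and fell by 0.45 ± 0.12 (adjusted p = 0.0385). Within the first scan batch the differences were -0.71 for SMAD4, -0.32 for SMAD2 and -0.31 for ACVR2A. SMAD1 and SMAD5, which carry the BMP signal, had differences of 0.14 ± 0.10 and 0.15 ± 0.13, below the threshold. BMPR1A, a type I receptor, had a difference of -0.31 on its brightest probe (adjusted p = 0.0991), and its other 2 probes fell by 0.73 and 0.47 (adjusted p = 0.017 and 0.0438). The type II receptor BMPR2 gave 0.30 ± 0.14 (adjusted p = 0.141).

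Of 14 secreted BMP antagonists only 5 were bright enough to be tested. NOG, GREM1 and 7 others were not. TWSG1, which binds BMPs outside the cell, fell on all 3 of its probes, by 0.64, 0.64 and 0.44 (adjusted p = 0.0174, 0.016 and 0.0408). On the brightest of the 3 it stood at 0.42 and 0.33 in the first hour and at -0.35, -0.31 and -0.13 later, a difference of -0.59 within the first scan batch. FSTL3, FST, CHRD and FSTL1 had differences of 0.35, 0.31, 0.18 and 0.01, none past the threshold. Of 12 BMP and GDF ligands tested, BMP8A rose by 1.44 ± 0.23 (adjusted p = 0.016) and GDF5 fell by 0.53 ± 0.11 (adjusted p = 0.0232). The BMP8A signal itself changed by -0.37 with BMP7 and by -1.82 with vehicle, and the probe is one of a set, its group C, that the study picked on these arrays, so its direction is not independent evidence. BMP4 had log2 ratios of -0.63, -0.02, 0.20, 0.10 and -0.11 from 30 min to 24 h and did not pass the test (adjusted p = 0.155).

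The probes with the largest increases were not those of known BMP targets. By size of difference among called probes with a gene symbol they were GDNF, NEUROG3, OTUD7A, ARHGAP35, POU3F3, ZNF467, CKB, PRR7, MEX3D, SPPL2B, SOX3 and CYP4F2. GDNF, which encodes a neurotrophic factor of the TGF-β superfamily, had log2 ratios of -1.06 and -0.43 in the first hour and of 1.56, 2.30 and 0.80 later. It rose by 2.30 ± 0.39, and CYP4F2, the last of the 12, by 1.86 ± 0.33 (adjusted p between 0.0123 and 0.0187 over the 12). NEUROG3 and POU3F3, transcription factors of endocrine and neural cells, rose by 2.23 and 2.01, and SOX3, another neural factor, by 1.89. CKB, brain creatine kinase, rose by 1.98 ± 0.30 on this probe and had a difference of 0.31 on its second one (adjusted p = 0.0615). SPPL2B, an intramembrane protease, rose by 1.90 on this probe and gave 0.29 on the other (adjusted p = 0.101). Of the 12 genes, 8 had another tested probe, and for 2 of these another probe rose as well. Within the first scan batch the differences of the 12 lay between 1.36 (CYP4F2) and 1.99 (GDNF).

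**Figure D2:**
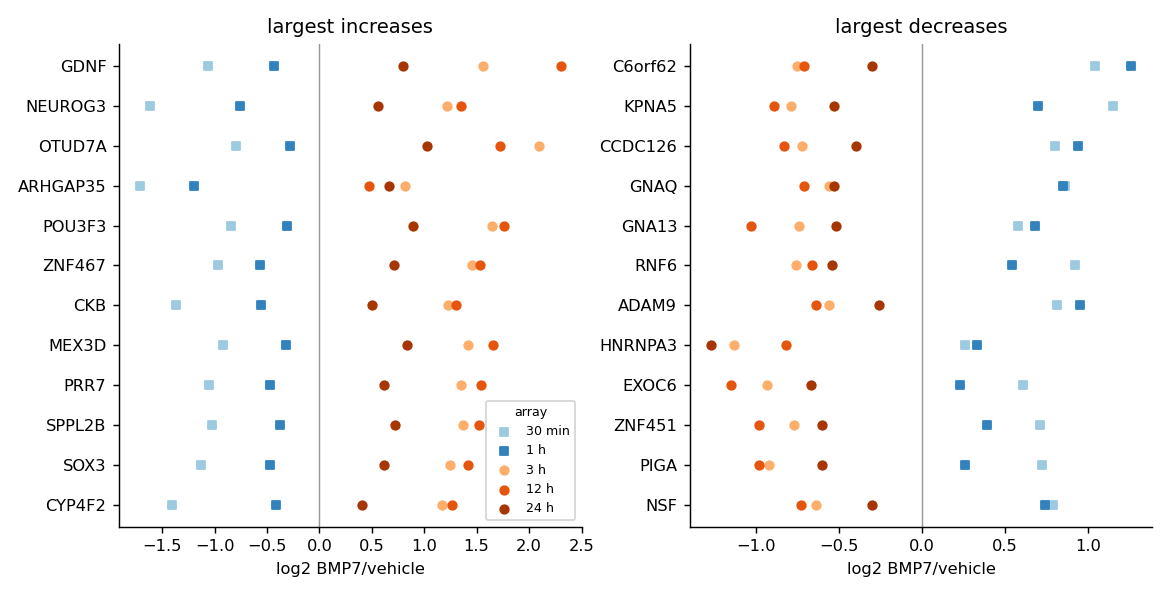
Log2 BMP7/vehicle ratio (horizontal axis) on each of the 5 ZR-75-30 arrays for the 12 called genes with the largest increases (left) and decreases (right), 1 probe per gene. Squares are the 30 min and 1 h arrays and circles the 3, 12 and 24 h arrays. The squares lie below 0 and the circles above it for all 12 genes that rose, and the reverse for all 12 that fell.

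These increases came with a lower signal in both channels at the later times for 11 of the 12 genes. For these 11 the change in the vehicle channel lay between -3.36 (GDNF) and -2.49 (PRR7) on the log2 scale, and the BMP7 channel changed by less, for example by -1.06 for GDNF. For CKB the change was -0.94 with BMP7 and -2.92 with vehicle. These 11 probes belong to group C, a set of 210 probes that the study itself picked for their shared response to BMP4 and BMP7 on these and other arrays. Their direction here is therefore not independent evidence. Over the 193 group C probes that could be tested, the median log2 ratio went from -0.88 and -0.20 in the first hour to 0.85, 1.02 and 0.34 later. The median difference was 1.28, and 160 of them rose and 0 fell. The 17 dim ones had a median difference of 0.91. The exception among the 12 genes was ARHGAP35. Its log2 ratios were -1.71 and -1.20 in the first hour and 0.82, 0.47 and 0.66 later, a rise of 2.11 ± 0.17, in which the BMP7 channel rose by 1.34 and the vehicle channel fell by 0.77. Its other 2 probes gave 0.50 (adjusted p = 0.0427) and 0.29 (adjusted p = 0.158).

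Over all 346 probes that rose by 2-fold or more, the BMP7 channel was higher later in 171 and lower in 175, and the vehicle channel was lower in 336. Of the 346, 137 were group C probes. The 82 probes that fell by 2-fold or more had a lower BMP7 channel in 74 and a higher vehicle channel in 79, with median changes of -0.30 and 0.86. Over every called probe, the median change was 0.22 in the BMP7 channel and -0.40 in the vehicle channel for those that rose, and -0.15 and 0.40 for those that fell. The larger part of the typical difference thus lay in the vehicle-treated cells or their channel. The part of a change over time in culture, of signal scale between arrays and of the treatment cannot be told apart with 1 array per time.

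**Figure D3:**
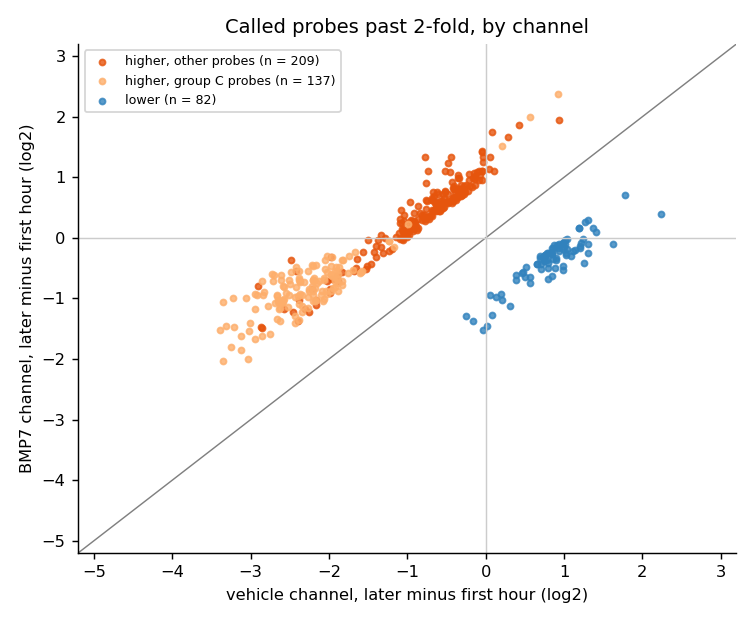
Change in the BMP7 channel (vertical axis) against the change in the vehicle channel (horizontal axis) from the first hour to the later times, both in log2 units of centred signal, for the called probes past 2-fold (346 that rose and 82 that fell). The diagonal marks equal change. Most group C probes lie to the lower left, where both channels fell, and the probes that fell lie mostly to the right of 0 on the vehicle axis.

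Among called probes with an approved gene symbol, the largest decreases were those of C6orf62, KPNA5, CCDC126, GNAQ, GNA13, RNF6, HNRNPA3, ADAM9, EXOC6, ZNF451, PIGA and NSF, from -1.74 to -1.32. Probes without one reached -1.86. The vehicle signals of the 12 probes named ran from 60.3 (GNAQ) and 71.2 (KPNA5) to 14100 (C6orf62), against a median of 656 over all probes tested. C6orf62 went from 1.04 and 1.26 to -0.75, -0.71 and -0.30, and fell by 1.74 ± 0.16 (adjusted p = 0.0123), whereas its other 2 probes gave -0.47 (adjusted p = 0.0355) and -0.39 (adjusted p = 0.0679). Another probe of the gene fell too for 7 of the 11 genes that had one. GNAQ and GNA13 encode alpha subunits of G proteins. GNAQ had log2 ratios of 0.86 and 0.85 in the first hour and -0.56, -0.71 and -0.53 later, and fell by 1.45 ± 0.10 (adjusted p = 0.0123). A second GNAQ probe fell by 0.77 (adjusted p = 0.0148), and the other 2 gave -0.12 and -0.09. ADAM9, a membrane metalloprotease, fell by 1.37 and 0.75 on its 2 probes, and RNF6, a ubiquitin ligase, by 1.38 and 0.50. Within the first scan batch the differences were -1.85 for C6orf62, -1.45 for GNAQ, -1.43 for ADAM9 and -1.19 for RNF6.

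HNRNPA3, an RNA-binding protein gene with many near-identical copies in the genome, differed from the other decreases. Its log2 ratios of 0.26 and 0.33 in the first hour turned to -1.13, -0.82 and -1.27 later, a fall of 1.37 ± 0.14 (adjusted p = 0.0123). Here the BMP7 channel fell by 1.28 while the vehicle channel moved by 0.08. A second probe, which overlaps it in position, fell by 1.25, and another, listed under the older name HNRPA3 and not matched to RefSeq, fell by 1.44 (adjusted p = 0.0147). The remaining 6 gave -0.31 to 0.38 without passing the threshold. Signal from the gene and from its copies cannot be separated on these probes. GNAQ, HNRNPA3 and ARHGAP35 were the only named genes still past the threshold without the 12 h array. Over all the ways of processing tried, their differences ranged from -1.49 to -0.67, from -1.49 to -0.96 and from 1.35 to 2.36, in that order.

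Some probes were near 0 in both arrays of the first hour (within 0.5) and beyond 0.5 on all 3 later arrays. There were 23 such probes among those that rose and 61 among those that fell, a class defined after the values were seen. The BMP7 channel was higher later for all 23, and lower later for 51 of the 61. Among the 23 were both ID2 probes, ID3 and ATOH8, and also APOL6, an apolipoprotein L gene (1.28, 1.32 and 1.40 at 3, 12 and 24 h), HSPB8, a small heat shock protein (0.69, 0.51 and 0.73), BMF, a BH3-only inducer of apoptosis (0.62, 0.69 and 0.66), AQP3, a water channel (0.56, 0.59 and 0.53), SLC17A5, a lysosomal sialic acid transporter (0.69, 0.79 and 0.67), and HGS, an endosomal sorting protein (0.69, 0.92 and 0.70). APOL6 had the largest difference of the 23, at 1.39, with -0.15 and 0.04 in the first hour. Among the 61 were KITLG, the ligand of the KIT receptor (-0.94, -0.81 and -0.89), PTPN11, a phosphatase of receptor signaling (-1.07, -1.16 and -0.94), YES1, a Src family kinase (-1.04, -0.93 and -0.66), SPRED1, an inhibitor of the RAS pathway (-0.60, -0.68 and -0.65, while its brighter probe had a difference of -0.19 and was not called), and MDK, the growth factor midkine (-0.69, -0.88 and -0.60). For KITLG, PTPN11, YES1 and SPRED1 the vehicle channel rose by 0.74, 0.80, 0.92 and 0.82. Their BMP7 channel changed by less, by -0.38, -0.50, -0.16 and 0.11. For MDK the changes were -0.06 with vehicle and -0.75 with BMP7.

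Other gene lists moved little as groups. Over 23 lists, 490 distinct genes were tested by their brightest probe, of which 8.37% rose and 8.37% fell. Of all probes tested 11.2% rose and 9.79% fell, and the count in each list is to be read against these shares. In the sterol and fatty acid synthesis list 7 of 31 genes fell and 1 rose, with a median difference of -0.11. SCD, the stearoyl-CoA desaturase, went from 0.69 and 0.52 to -0.15, -0.06 and -0.05, a fall of 0.69 ± 0.10 (adjusted p = 0.015). HMGCS1 fell by 0.77 ± 0.16 (adjusted p = 0.0248) with no value at 12 h, where its spot was an outlier, and CYP51A1 by 0.59, whereas MVD rose by 0.66. The other probes tested of the 3 genes that fell did not pass the threshold, at -0.29 for SCD (adjusted p = 0.0626), -0.16 for HMGCS1 and 0.02 for CYP51A1. In vehicle-treated cells the signal of SCD, HMGCS1 and CYP51A1 was higher later, by 1.15, 1.40 and 0.80, and with BMP7 by 0.46, 0.63 and 0.21.

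Among 26 immediate early genes 4 rose and 2 fell, where 11.2% of all probes tested rose and 9.79% fell. JUN went from -0.74 and -0.62 to 0.28, 0.00 and -0.11 and rose by 0.74 ± 0.14 (adjusted p = 0.0192), and FOS rose by 0.42 ± 0.11 (adjusted p = 0.0374). The FOS signal itself changed by -1.87 with BMP7 and by -2.29 with vehicle. EGR3 fell by 0.61 and MYC by 0.45. MYC, on its brighter probe, was below 0 on all 5 arrays, at -0.21 and -0.13 in the first hour and -0.63, -0.78 and -0.46 later (adjusted p = 0.039). The other MYC probe that could be tested gave -0.07 (adjusted p = 0.836). Of 13 ERK feedback genes 0 were called in either direction by limma, on their brightest probes, with the largest difference at 0.50 for ETV4 (adjusted p = 0.0934). The second probe of ETV4, an ETS transcription factor, rose by 0.74 (adjusted p = 0.0192), and of 4 PHLDA1 probes 1 rose by 0.49 and 1 fell by 0.63 (adjusted p = 0.0393 and 0.0217).

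Of 10 CDK inhibitors, D cyclins and MYC, CCND1, CCND3 and CDKN1B rose. For this and the next lists, the shares of all probes tested were 11.2% that rose and 9.79% that fell. CCND1 (cyclin D1) went from -0.38 and -0.47 to 0.27, 0.35 and 0.10, a rise of 0.66 ± 0.11 (adjusted p = 0.0171), with 0.36 and 0.48 on its other probes, below the threshold. CDKN1B, which encodes the CDK inhibitor p27, rose by 0.42 ± 0.11 (adjusted p = 0.0417) and gave 0.18 on its other probe (adjusted p = 0.227). Among 40 proliferation genes 3 rose and 4 fell, and the falls were those of BIRC5 (-0.65), CCNE2 (-0.68), CENPF (-0.54) and RRM1 (-0.45), while MKI67, TOP2A and BUB1B rose by 0.40, 0.39 and 0.61. The other CENPF probe gave 0.27 (adjusted p = 0.13). In the estrogen receptor list 4 of 25 rose, namely CCND1, IGFBP4, GATA3 and SPDEF. GATA3, a luminal transcription factor, rose by 0.51 ± 0.13 (adjusted p = 0.039; 0.33 without the 30 min array), and ESR1 itself had a difference of -0.10 ± 0.15. In the ERBB list STARD3 rose by 0.75 and GRB7 by 0.47, both neighbours of ERBB2 on its chromosome, and HBEGF by 0.64.

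Heat shock genes rose in 3 of 18 cases, where 11.2% of all probes tested rose and 9.79% fell. HSPB8 rose by 0.92 ± 0.12 (adjusted p = 0.0148), HSPA6 by 0.56 and HSP90AB1 by 0.54. In the glycolysis and hypoxia list 5 of 33 rose, led by PFKL (0.98) and ENO2 (0.67), and 2 fell, among them P4HA1 (-0.60). Without the 30 min array the values were 0.35 for ENO2 and 0.35 for HSPA6. Of 29 interferon-stimulated genes, IRF1 rose by 0.76 and STAT2 by 0.61, and 1 fell. MX1 varied within both groups, at 1.07 and 0.22 in the first hour and -0.52, -0.18 and 0.62 later (difference -0.67 ± 0.35, adjusted p = 0.196). Of 11 inflammatory genes, RELB fell by 0.43 and CXCL1 by 0.36. In the Notch list 3 of 13 rose, among them HES6 (0.84) and NOTCH1 (0.60), and 3 fell, among them NOTCH2 (-0.69) and HEY2 (-0.61). In the EMT and adhesion list CLDN4, a tight junction claudin, rose by 0.79 ± 0.13 (adjusted p = 0.0171), and 3 of 16 fell, among them TJP1 (-0.51, with -0.28 on its other probe, not called) and CDH1 (-0.45). Of 15 clock genes 3 fell on their brightest probe, namely CLOCK (-0.66), PER3 (-0.61) and PER2 (-0.46). The probes of these genes disagreed. The other PER2 probe rose by 1.21 (adjusted p = 0.0198), and the other probes of CLOCK and PER3 gave -0.13 and -0.36 and were not called.

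The remaining lists held few calls relative to their size, where 11.2% of all probes tested rose and 9.79% fell. Of 75 cytosolic ribosomal protein genes 5 fell and 1 rose, with a median difference of -0.01. RPL37 fell on its brighter probe from a mean of 0.09 in the first hour (0.04 and 0.15) to -1.01 later (-0.91, -1.30 and -0.81, SE of the difference 0.16, adjusted p = 0.0148), and gave -0.44 on the other probe tested (adjusted p = 0.0648). Ribosomal protein genes have many processed copies, so these values are uncertain as to source. Of 32 genes of the unfolded protein and amino acid stress response only CALR fell (-0.41). Of 12 metallothioneins and 35 histone genes, on their brightest probes, 0 were called in either direction by limma. Their differences ran from -0.08 to 0.31 and from -0.33 to 0.55. Outside that count, a probe of the histone gene H2AC18 rose by 1.65 in ZR-75-30 (limma, adjusted p = 0.0143). Its change exceeded the mean change of the other lines by 1.23 ± 0.21 (limma, adjusted p = 0.0289). The signal of this probe changed by -0.32 with BMP7 and by -1.97 with vehicle. Histone probes can read several near-identical genes. Of the marker lists, 2 of 11 luminal markers rose and 1 fell, 0 of 5 basal and mesenchymal markers tested were called, and 0 of 2 markers of other cell types.

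**Figure D4:**
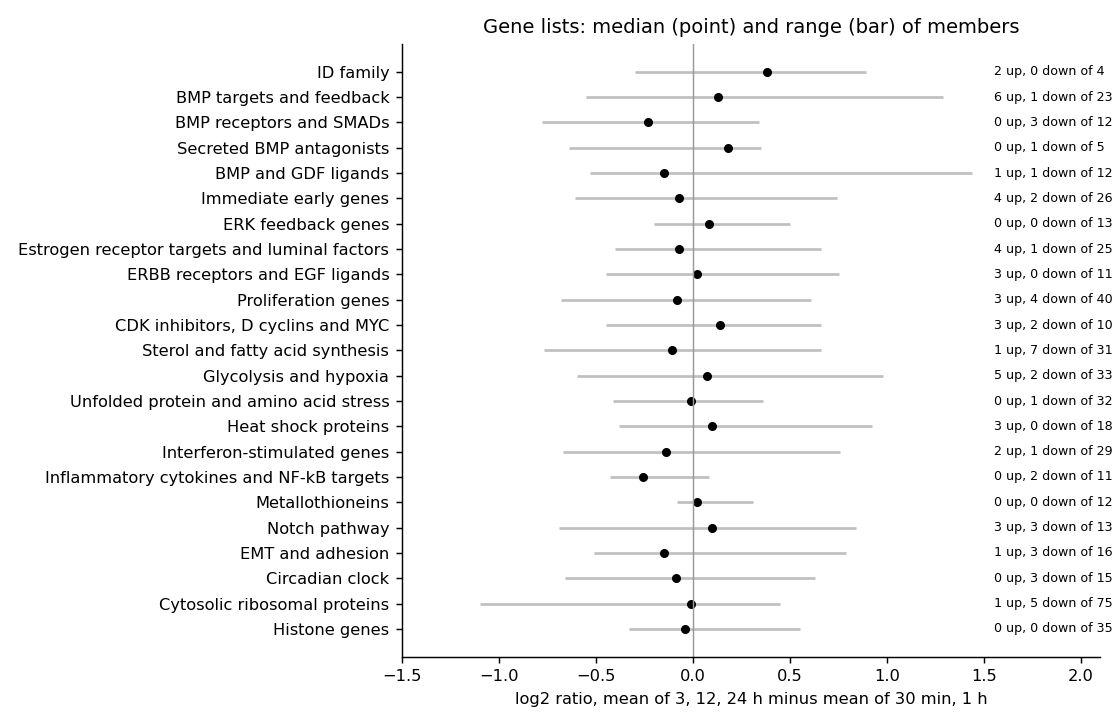
Difference in log2 ratio between the later times and the first hour (horizontal axis) in ZR-75-30 cells for the tested members of 23 gene lists, with the median as a point and the range as a bar. The text at the right gives the number of genes called higher and lower of those tested. The ID family has the highest median, 0.38, and the inflammatory genes the lowest, -0.26.

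Set against the mean change of the other 4 lines at the same times, the change in ZR-75-30 differed for 19 probes in the higher and 8 in the lower direction (limma, adjusted p under 0.05), which is 0.0805% and 0.0339% of 23617 probes. The SD of the differences over all probes was 0.383 in ZR-75-30, 0.331 in T-47D, 0.197 in MDA-MB-231, 0.176 in HCC1954 and 0.164 in MDA-MB-361. The 6 named here are those with the largest excess in ZR-75-30 among called probes with an approved gene symbol. ARHGAP35 rose by 2.11 in ZR-75-30 and had differences of -0.52 in MDA-MB-231 and of -0.04, -0.07 and 0.10 in HCC1954, MDA-MB-361 and T-47D. The change in ZR-75-30 was 2.24 ± 0.36 above their mean (adjusted p = 0.0284). BRD3, a bromodomain reader of acetylated histones, exceeded the other lines by 1.46 ± 0.25 (adjusted p = 0.0284), and both its probes rose in ZR-75-30, by 1.54 and 1.07. ZNF785, a zinc finger gene, differed by 1.40, EZR, the membrane to cytoskeleton linker ezrin, by 1.35, MALAT1, a nuclear long noncoding RNA, by 1.33, and CCDC177 by 1.30. The second EZR probe did not move in ZR-75-30 (0.07, adjusted p = 0.658), and of the other 3 MALAT1 probes 2 rose, by 1.28 and 0.43. The last MALAT1 probe gave 0.07 (limma, adjusted p = 0.803). The ZNF785 probe was dim, with a vehicle signal of 56.8 against a median of 656 over all probes tested. The 8 probes in the lower direction carried no approved gene name. They are 3 predicted genes and 5 probes named by a transcript or probe identifier, with differences in ZR-75-30 between -1.86 and -0.86. The count of 27 was 0 without the 3 h array, without the 12 h array, or without HCC1954, MDA-MB-231 or MDA-MB-361, 208 without the 24 h array and 431 without T-47D.

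For the BMP targets no difference between ZR-75-30 and the other lines passed the test. ID1 had a difference of 0.27 in ZR-75-30. The other lines had 1.63 (MDA-MB-231), 1.06 (HCC1954), 1.03 (MDA-MB-361) and 0.56 (T-47D), all above it. The gap to their mean was -0.80 ± 0.29 (adjusted p = 0.245). ID2 at 0.89 lay within the range of the other lines (0.43 to 1.64), and so did ATOH8 at 0.81 (-0.16 to 1.61). For SMAD6 the change of 0.75 was close to that of MDA-MB-361 (0.73), and the gap to the mean was 0.21 ± 0.23. The CN479126 probe next to ID1 rose by 1.42, against a mean of 1.20 in the other lines.

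**Figure D5:**
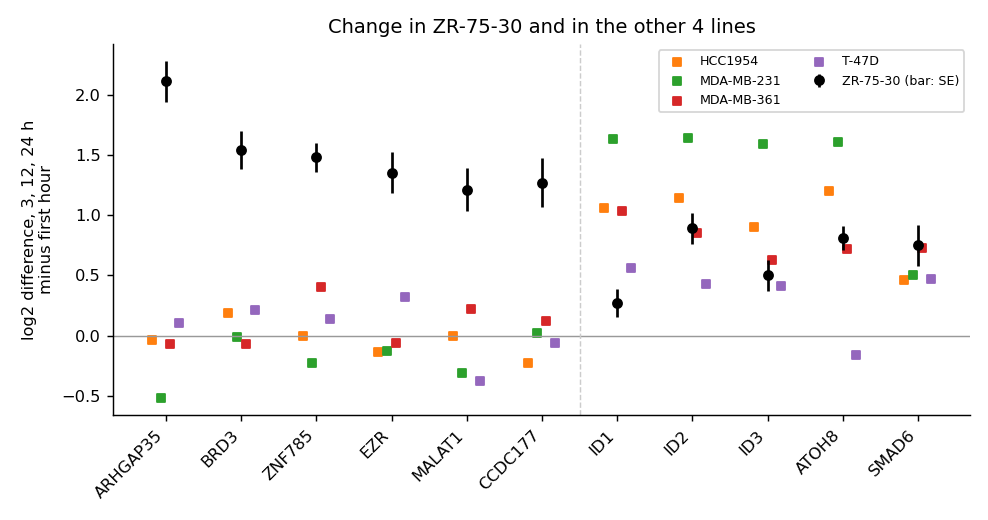
Difference in log2 ratio between 3, 12 and 24 h and the first hour (vertical axis) for 6 genes whose change in ZR-75-30 differed from the mean of the other lines (left of the dashed line) and 5 BMP targets (right). Black circles are ZR-75-30 with the standard error, and coloured squares the other 4 lines. ARHGAP35 stands at 2.11 in ZR-75-30 and between -0.52 and 0.10 elsewhere, whereas ID1 is lowest in ZR-75-30.

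The probes called in ZR-75-30 moved the same way most often in T-47D and MDA-MB-231. Of the 2654 that rose, 85.8% had a difference above 0 in T-47D and 80.6% in MDA-MB-231, against 50.8% and 48.4% of all probes. The shares were 59.1% in HCC1954 and 58.8% in MDA-MB-361, with 51.5% and 50.3% of all probes. Of the 2313 that fell, 79.1% were below 0 in MDA-MB-231, 72.8% in T-47D, 63.6% in MDA-MB-361, against 50.6%, 48.6% and 49.4% of all probes, and in HCC1954 it was 1157 of them, against 47.8% of all probes. Probes share arrays, so these shares carry no p-value. The 30 min arrays of ZR-75-30 and MDA-MB-231 also lay on the same slide in the second scan batch, and the part of this was not tested. The 6 h array of ZR-75-30, which took no part in the comparison, showed no such lean over all called probes. Its log2 ratio was above 0 for 46.3% of the probes that rose and for 48.2% of all probes tested, and below 0 for 54.8% of those that fell and 51.8% of all. Smaller sets of called probes did lean at 6 h. The tested group C probes, which the study picked on these arrays, had a median of 1.74 on the 6 h array. Of the probes near 0 in the first hour and beyond 0.5 later, 18 of the 23 that rose were above 0 at 6 h. Of the 61 that fell, 53 were below 0. ID2 (1.14), ID3 (0.58) and ATOH8 (0.51) were above 0 on the 6 h array, as on the later arrays.

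The called genes also differed in features that the comparison did not use. Genes with probes called in both directions were left out of the medians of length and promoter GC. Genes called only lower had a median length of 44.4 kb in the RefSeq annotation. It was 24.6 kb for those called only higher and 26.5 kb for genes with no call. When the tested genes were ordered by length in 5 equal groups, the share that fell went from 6.24% and 5.75% in the shortest 2 groups to 8.55%, 11.1% and 14.0% in the longer ones. The share that rose was 10.8% and 11.4% in the shortest 2 groups and 6.85% in the longest. The median difference went from 0.00 in the shortest to -0.13 in the longest group. The same step went from 0.04 to -0.06 in MDA-MB-231, from 0.05 to -0.02 in HCC1954, from 0.02 to -0.02 in T-47D and from 0.01 to 0.00 in MDA-MB-361. The GC content of the promoter window had a median of 67.3% for genes called only higher, 65.7% for those called only lower and 64.7% for those with no call. Between the fifth of genes with the lowest and the fifth with the highest promoter GC, the share that rose went from 7.56% to 12.3% and the share that fell from 8.85% to 9.20%. Across 9946 genes, which share arrays and are not independent, promoter GC and the difference correlated at 0.0642.

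On single arrays, the number of tested probes at 2-fold or more was 40 up and 192 down at 30 min and 37 up and 46 down after 1 h. Later it was 116 up and 31 down at 3 h, 149 up and 42 down after 12 h, and 28 up and 6 down after 24 h. Decreases outnumbered increases in the first hour, and increases outnumbered decreases at 3, 12 and 24 h. On the 6 h array, left out here, decreases again outnumbered increases (929 up and 1114 down). The 24 h array had the fewest in both directions. These counts have no replicate check.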

How the data were processed

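Per the file headers, the authors scanned 2-colour Agilent arrays and extracted them with Feature Extraction 9.5.1.1 (probe positions on hg18), and deposited the log10 ratio of red (BMP7) to green (vehicle) after lowess dye normalization. The deposited processed signal intensities are background-corrected, and the mean and background intensities are raw. A deposited table of log2 ratios, normalized between arrays by the authors, served as an alternative. Here log10 ratios were turned into log2 without control spots and spots marked as outliers, repeated spots were averaged per probe, and the median of each array was set to 0. Probes above background in both channels on at least 4 of 5 arrays were fitted with limma 3.58.1 (R 4.3.3, lmFit and eBayes), with Benjamini-Hochberg adjustment at 0.05 over all probes tested. A second fit over 25 arrays compared the change with that of 4 other lines. A gene's brightest tested probe stood for it in lists, and other probes are given for some of the genes. Of the tested probes, 18336 matched a RefSeq gene (GRCh38.p14). Named were up to 12 called genes per direction without overlap between groups, up to 6 against other lines, all tested ID, target, receptor and antagonist genes, and up to 4 members of each other list; further genes were named after their values were seen. The members and lists were chosen with earlier results of these data known. Channel changes are differences of centred log2 signal. The fits were tested on simulated data. Background correction, normalization, filters, arrays left out, weights and blocks were varied.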

Additional observations from a re-analysis of the deposited data

Results flagged for a closer look

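The change in ZR-75-30 differed from the mean change of the other 4 lines for 27 probes by the test of that difference (limma, adjusted p under 0.05). Among them, ARHGAP35 exceeded the other lines by 2.24 on the log2 scale, BRD3 by 1.46, ZNF785 by 1.40, EZR by 1.35, MALAT1 by 1.33 and CCDC177 by 1.30. For EZR, ARHGAP35 and BRD3 other probes of the gene showed smaller changes in ZR-75-30 than the probe named. The other MALAT1 probes gave 1.28, 0.43 and 0.07, against 1.21 on the probe named.

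The 6 h array of ZR-75-30, left out of the comparisons except where it was added as an alternative, had 2043 of the tested probes at 2-fold or more (929 up and 1114 down), with no replicate check. The SD of its log2 ratios was 0.602, against 0.213 to 0.334 on the 5 arrays compared. It shared a slide and the second scan batch with the 30 min array, and the part of either was not tested.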

How the results depend on the processing

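The 4967 calls became 4328 with normexp and loess, 0 with normexp and median scaling, 2 with no filter on dim probes, 0 with the 6 h array added (4351 at an unadjusted p under 0.05) and 1739 in a fit of 25 arrays. Leaving out 1 array gave 0 to 7297. With the authors' table of values there were 4331, split into 3024 higher and 1307 lower. The 27 differences from other lines became 444, 0 (533 at an unadjusted p under 0.05), 72, 56 and 227 with normexp and loess, normexp and median scaling, the authors' table, no filter and 6 h arrays, 2073 with array weights (whose estimation did not fully converge), 0 without HCC1954, MDA-MB-231 or MDA-MB-361, 431 without T-47D, and 0 to 208 without 1 array of ZR-75-30. In limma fits of the gene lists, the 82 calls became 0 with median scaling, no filter or 6 h, 31 with 25 arrays, and 0 to 114 without 1 array. The 687 probes past 2-fold became 355 with normexp and loess, 2777 with no filter and 53 at 3-fold. The group C median became 0.91 with normexp and median scaling. Of 90 named genes called, 0 turned direction under any alternative. For the fits without 1 array this was fixed in advance, because the groups did not overlap for any called probe. Over all called probes, 8 turned with 6 h added, 1 with the authors' table and 1 with outlier spots kept. The named genes that turned direction were not called. With normexp and median scaling these were SMURF2 (-0.00), HES1 (-0.11), FSTL1 (-0.13), SMAD1 (-0.05), SKIL (-0.03), SMURF1 (-0.08), BAMBI (-0.04), ACVR2B (-0.11) and DLX1 (-0.12). With 6 h added they were SMURF2 (-0.12), KLF10 (-0.04), FSTL1 (-0.03), DLX2 (-0.09), SMURF1 (-0.13) and HEY1 (0.12). FSTL1 was -0.03 with array weights and DLX2 -0.02 with the slide as a random block. Over the fits without 1 array, the value went for DLX2 from -0.20 to 0.20, CHRD from -0.12 to 0.49, SMAD7 from -0.03 to 0.34, DLX1 from -0.13 to 0.17, SMAD5 from -0.02 to 0.33, FSTL1 from -0.04 to 0.07, BAMBI from -0.05 to 0.34, SLC30A1 from -0.10 to 0.38 and MT1X from -0.16 to 0.03. No paired analysis was possible because the labels number no replicates that groups share.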
